A study of Arabidopsis thaliana with 18 samples.

Results

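AT4G37290 and AT2G23270 encode precursors of PIP peptides, and their transcripts were followed in rosette leaves of Arabidopsis thaliana on 18 ATH1 arrays. Both loci were chosen from measured values, namely their induction by a safener spray, and each had 1 probe set on the array. They are 2 of the 13350 genes that the annotation given names alone on a probe set. Since the same values chose them, their levels, responses and differences between genotypes are a description, given with errors and without p values. All plants were 4 weeks old and grown on soil under long days, and 3 biological samples were taken for each of 6 groups. The groups were wild type Col0, the mutant tga2tga3tga5tga6 (called 4tga in the labels) and the mutant sid2-2, each sprayed with mock or with safener. The safener spray held mefenpyr (5 mM) together with isoxadifen (7.2 mM) in a formulation with an emulsifier, at 875 µL per pot. The mock spray held DMSO, the solvent of the safener stocks, and the sources used here do not say whether it also held the emulsifier, how long after the spray leaves were taken or which ecotype the mutants have. The responses therefore compare the formulation as sprayed with mock.

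PIP peptides are short signals that plant cells secrete when pathogen patterns or stress are sensed. Each is cut from the end of a longer precursor with a secretion signal, and in Arabidopsis the receptor kinase RLK7 perceives PIP peptides and strengthens immune responses. TGA factors are bZIP transcription factors that act in salicylic acid signalling and in the response to xenobiotics, which safeners are. The 4tga mutant lacks several of them. In sid2-2 plants isochorismate synthase, the main route to salicylic acid under stress, is lost. The genes disrupted in the mutants and RLK7 were not analysed here.

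Intensities are the linear values that the authors deposited, with each array at a median of 200 over all its listed values. Between 14627 and 16408 of 22746 probe sets had a value on an array, and the others were blank. An array's mean correlation with the other arrays of its group, over probe sets with values on all arrays, was 0.978 to 0.993. It was lowest for replicate 3 of mock treated sid2-2 (0.978) and next lowest for replicate 1 of safener treated Col0 (0.981), and values without them are given where they moved a result. Of the leaf markers, LHCB4.2, LHCB4.1 and RCA, which serve photosynthesis, lay between 1873 and 6829 on all arrays, and LHCB4.3 between 295 and 894. The root marker PYK10 was also listed on all arrays (228 to 630). With safener it fell in sid2-2 (log2 -0.88, SE 0.17, limma adjusted p = 0.000688), and LHCB4.2 fell in Col0 (log2 -0.73, SE 0.15, limma adjusted p = 0.000962), while the other markers were not called in any genotype. The part of these markers in the results was not tested. In whole leaves, fewer cells of a type and less RNA per cell cannot be told apart.

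AT4G37290 went from low values with mock to far higher ones with safener in all 3 genotypes, with ratios of the group means from 6.50 in sid2-2 to 10.9 in Col0. In mock treated Col0 its intensity was 39.1 and 36.2 on replicates 1 and 2, with a blank on replicate 3. In safener treated Col0 it was 500.0, 279 and 451 on replicates 1 to 3. Every listed safener value was thus at least 7.14 times every listed mock value in this genotype. In mock treated 4tga it was 63.7, 62.7 and 90.7, and in safener treated 4tga 665, 553 and 603. In mock treated sid2-2 it was 84.9, 91.0 and 215, and in safener treated sid2-2 823, 853 and 861. The 9 safener arrays all lay above the 8 mock arrays with a value, whatever the genotype. No share of all probe sets is given for this separation. The gene was chosen for its induction, so nothing is read from the separation. The closest approach was between replicate 3 of mock treated sid2-2 (215) and replicate 2 of safener treated Col0 (279).

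AT2G23270 had a value on all 18 arrays, and its values separated by treatment within each genotype but not across genotypes. In mock treated Col0 its intensity was 114, 122 and 93.9, and with safener it was 247, 178 and 209. In mock treated 4tga it was 168, 132 and 201, and with safener 676, 495 and 676. The safener treated 4tga arrays were the highest of all and overlapped with no other group, for which no share of all probe sets is given. In mock treated sid2-2 it was 145, 126 and 209, and with safener 325, 301 and 332. Replicate 3 of mock treated 4tga and replicate 3 of mock treated sid2-2 lay above the lowest safener treated Col0 array. The share of all tested probe sets whose safener arrays all lay above the mock arrays, as those of both genes did, was 20% in Col0, 17.4% in 4tga and 15.5% in sid2-2. The rule that chose the genes used these same contrasts, so nothing is read from that comparison.

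**Figure D1:**
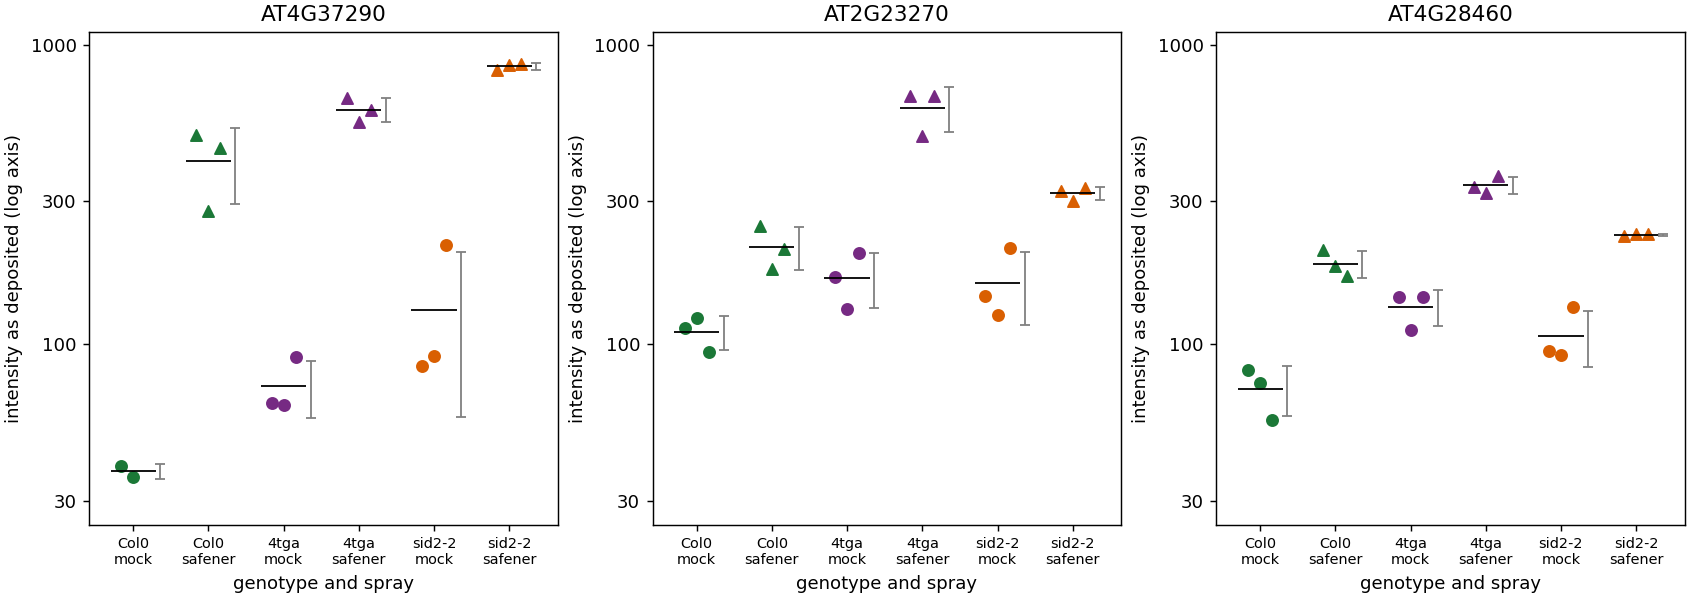
Intensity of AT4G37290, AT2G23270 and AT4G28460 on each array (vertical log axis, intensity as deposited) by genotype and spray. Circles are mock arrays, triangles safener arrays, black lines group means and grey bars 1 SD, with n = 3 except 2 listed values for AT4G37290 in mock treated Col0. The 3 safener treated 4tga arrays of AT2G23270 lie between 495 and 676, above all its other arrays, whereas those of AT4G37290 (553 to 665) lie below safener treated sid2-2.

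In the order of the 6 groups both genes shared mock treated Col0 as the lowest and safener treated Col0 as the lowest safener group, while sid2-2 and 4tga changed places under mock and under safener. For AT4G37290 the group means rose from mock treated Col0 (37.6 ± 2.06, mean ± SD, 2 listed values) through mock treated 4tga (72.4 ± 15.8, n = 3) and mock treated sid2-2 (130.1 ± 73.2, n = 3) to the safener groups. There Col0 had 410.0 ± 116, 4tga 607 ± 56.4 and sid2-2 846 ± 20.1 (n = 3 each). Only mock treated 4tga and mock treated sid2-2 overlapped among neighbours in this order, and all other neighbours were separated. For AT2G23270 the order began with mock treated Col0 (109.9 ± 14.5), mock treated sid2-2 (159.7 ± 43.5) and mock treated 4tga (166.8 ± 34.8). It went on with safener treated Col0 (211 ± 34.8) and safener treated sid2-2 (319 ± 16.2) and ended with safener treated 4tga (616 ± 104, n = 3 each). Here mock treated sid2-2 overlapped with mock treated 4tga, and mock treated 4tga with safener treated Col0. These orders and overlaps describe values that chose the genes, and no share of all probe sets is given for them. Of both genes, AT4G37290 thus had its highest level in sid2-2 and AT2G23270 in 4tga.

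The induction of AT4G37290 ran from 7.15-fold to 10.6-fold over the 3 genotypes, with wide intervals. Its log2 response to safener was 3.40 in Col0 (SE 0.30, 95% interval 2.78 to 4.03, 10.6-fold), 3.09 in 4tga (SE 0.27, interval 2.53 to 3.65, 8.49-fold) and 2.84 in sid2-2 (SE 0.27, interval 2.27 to 3.40, 7.15-fold). SE and intervals are those of a limma fit to all arrays and probe sets. The response in 4tga minus that in Col0 was log2 -0.32 (SE 0.40, interval -1.15 to 0.52). In 4tga minus sid2-2 it was 0.25 (SE 0.38, interval -0.54 to 1.04), and in sid2-2 minus Col0 -0.57 (SE 0.40, interval -1.40 to 0.27). As ratios these intervals reach 0.449 for 4tga against Col0, 2.06 for 4tga against sid2-2 and 0.378 for sid2-2 against Col0. They therefore do not show equal induction. Without replicate 3 of mock treated sid2-2, the array with the value of 215, the sid2-2 response was log2 3.27, sid2-2 minus Col0 was -0.14 and 4tga minus sid2-2 was -0.18. On the linear scale the gain in mean intensity was 372 in Col0, 535 in 4tga and 716 in sid2-2. The log2 responses had the reverse order with all arrays, but not without replicate 3 of mock treated sid2-2, where the sid2-2 response (3.27) lay above that of 4tga (3.09).

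The Col0 values of AT4G37290 rest on a blank. The fit left out replicate 3 of mock treated Col0, where this probe set had no value. Of 613 probe sets whose other 2 mock treated Col0 arrays lay between 28.9 and 48.9, as for AT4G37290, 37 (6.04%) were blank on replicate 3, and the rest had a median of 39.5 there. If blanks are set to the lowest listed value of the array (6.97 on this array), the Col0 response becomes log2 4.21 (SE 0.53). With this setting 4tga minus Col0 becomes -1.13 (SE 0.75) and sid2-2 minus Col0 -1.38 (SE 0.75).

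AT2G23270 showed its strongest induction in 4tga. Its log2 response was 0.94 in Col0 (SE 0.18, interval 0.55 to 1.32, 1.92-fold), 1.89 in 4tga (SE 0.18, interval 1.50 to 2.28, 3.71-fold) and 1.03 in sid2-2 (SE 0.19, interval 0.64 to 1.42, 2.04-fold). Without both arrays that stand apart it was 0.82 in Col0 and 1.24 in sid2-2. The response in 4tga exceeded that in Col0 by log2 0.95 (SE 0.26, interval 0.41 to 1.50) and that in sid2-2 by 0.86 (SE 0.26, interval 0.31 to 1.41). Leaving out each array in turn gave 0.79 to 1.10 for 4tga minus Col0 and 0.65 to 1.02 for 4tga minus sid2-2, and with array weights 4tga minus sid2-2 was 0.55 (SE 0.22). In sid2-2 minus Col0 the difference was 0.09 (SE 0.26, interval -0.45 to 0.64), and 0.42 without both arrays that stand apart. The gain in mean intensity was 101 in Col0, 449 in 4tga and 159 in sid2-2. By the size of the difference between 4tga and Col0, AT2G23270 stood at rank 16 from the highest of 14556 probe sets, and AT4G37290 at rank 13208. These differences, intervals and ranks describe values that the choice of genes already used.

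**Figure D2:**
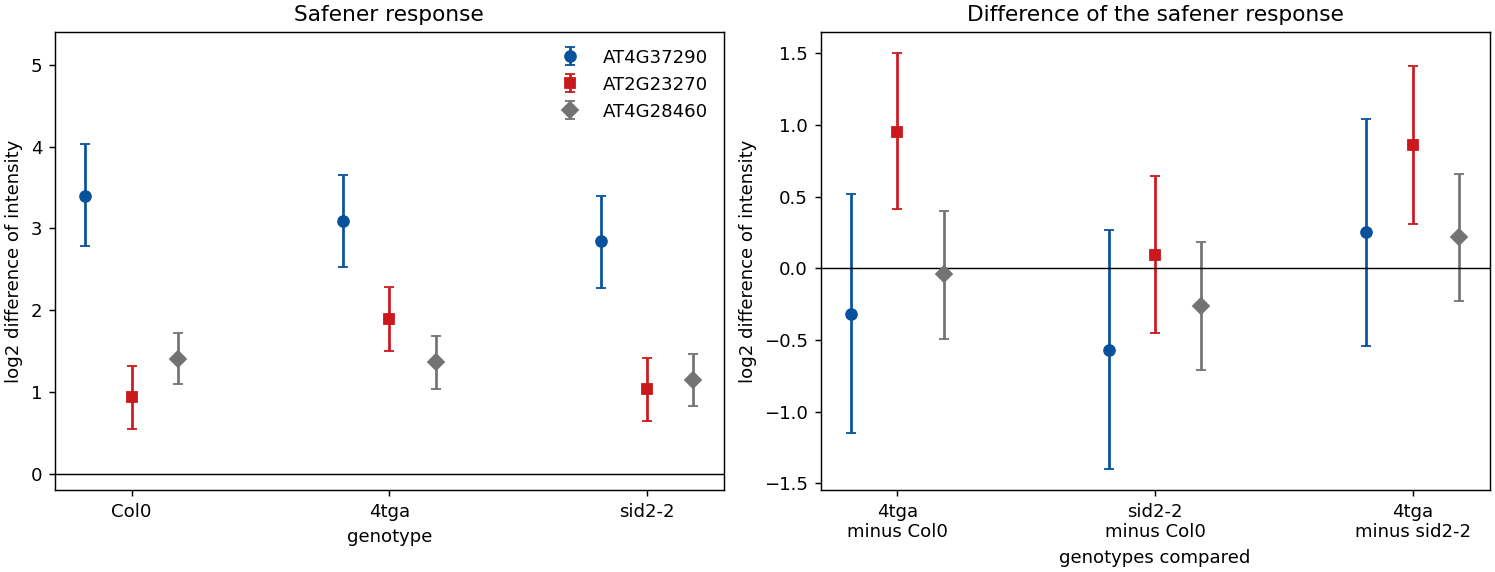
Left, log2 difference of intensity between safener and mock in each genotype; right, the difference of that response between genotypes. Points are estimates and bars 95% intervals of the limma fit to 18 arrays, for AT4G37290 (circles), AT2G23270 (squares) and AT4G28460 (diamonds). The estimates of AT2G23270 for both comparisons with 4tga are 0.95 and 0.86, and those of AT4G37290 run from -0.57 to 0.25.

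Set side by side on the log2 scale of each gene's own response, the genes stood farthest apart in Col0. On the arrays where both had a value, the response of AT4G37290 exceeded that of AT2G23270 by log2 2.57 (SE 0.21) in Col0, 1.81 (SE 0.19) in sid2-2 and 1.20 (SE 0.19) in 4tga. The gap between both genes was narrower in 4tga than in Col0 (log2 difference -1.38, SE 0.29) and than in sid2-2 (log2 difference -0.61, SE 0.27). Both components of that narrowing ran the same way, with a smaller estimate for AT4G37290 and a larger one for AT2G23270 in 4tga than in Col0. The levels themselves are not compared between both genes, since each probe set has its own brightness.

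Both genes were already higher in mock treated mutants than in mock treated Col0. For AT4G37290 the difference was log2 0.92 in 4tga (SE 0.30, 1.90-fold) and 1.65 in sid2-2 (SE 0.30, 3.15-fold), or 1.23 without replicate 3 of mock treated sid2-2. These differences rest on 2 listed mock values in Col0, and with the blank at the lowest listed value they were 1.73 and 2.46. For AT2G23270 it was 0.59 in 4tga (SE 0.18, 1.50-fold) and 0.51 in sid2-2 (SE 0.18, 1.43-fold), or 0.30 without that array. In both genes all listed mutant arrays lay above all listed Col0 arrays, which also held for 22.1% of the probe sets tested in 4tga and 26.9% in sid2-2. The median log2 difference over all these probe sets was 0.07 in 4tga and 0.11 in sid2-2.

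Under safener the mutants again lay above Col0, and here both genes parted. AT4G37290 exceeded its Col0 level by log2 0.61 in 4tga (SE 0.27), or 0.35 without replicate 2 of safener treated Col0, and by 1.09 in sid2-2 (SE 0.27, 2.13-fold). AT2G23270 exceeded its Col0 level by 1.54 in 4tga (SE 0.18, 2.91-fold) and by 0.61 in sid2-2 (SE 0.18). All safener treated mutant arrays lay above all safener treated Col0 arrays for both genes, as they did for 21.3% of probe sets in 4tga and 21.5% in sid2-2. Between both mutants, safener treated sid2-2 lay wholly above 4tga for AT4G37290 (log2 0.48, SE 0.27) and wholly below it for AT2G23270 (log2 -0.93, SE 0.18), while 21% of probe sets lay wholly above and 16% wholly below.

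Across arrays both genes varied together, as description and with the treatment and genotype groups shared by the points. Over the 17 arrays with both values Pearson's r of log2 intensity was 0.826 and Spearman's rho 0.887, and over the 6 group means r was 0.853. Among the 7223 probe sets compared with AT4G37290 by r, AT2G23270 stood at rank 358, and 146 had r over 0.9. After the group means were subtracted, r over the same 17 arrays was 0.815. Replicate 3 of mock treated sid2-2 was the highest of its group in both genes, by log2 0.86 above the group mean in AT4G37290 and 0.42 in AT2G23270. This array also had the lowest mean correlation with its group (0.978), and no r without it is given. Replicate 2 of safener treated Col0 was the lowest of its group in both, by -0.51 and -0.24.

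**Figure D3:**
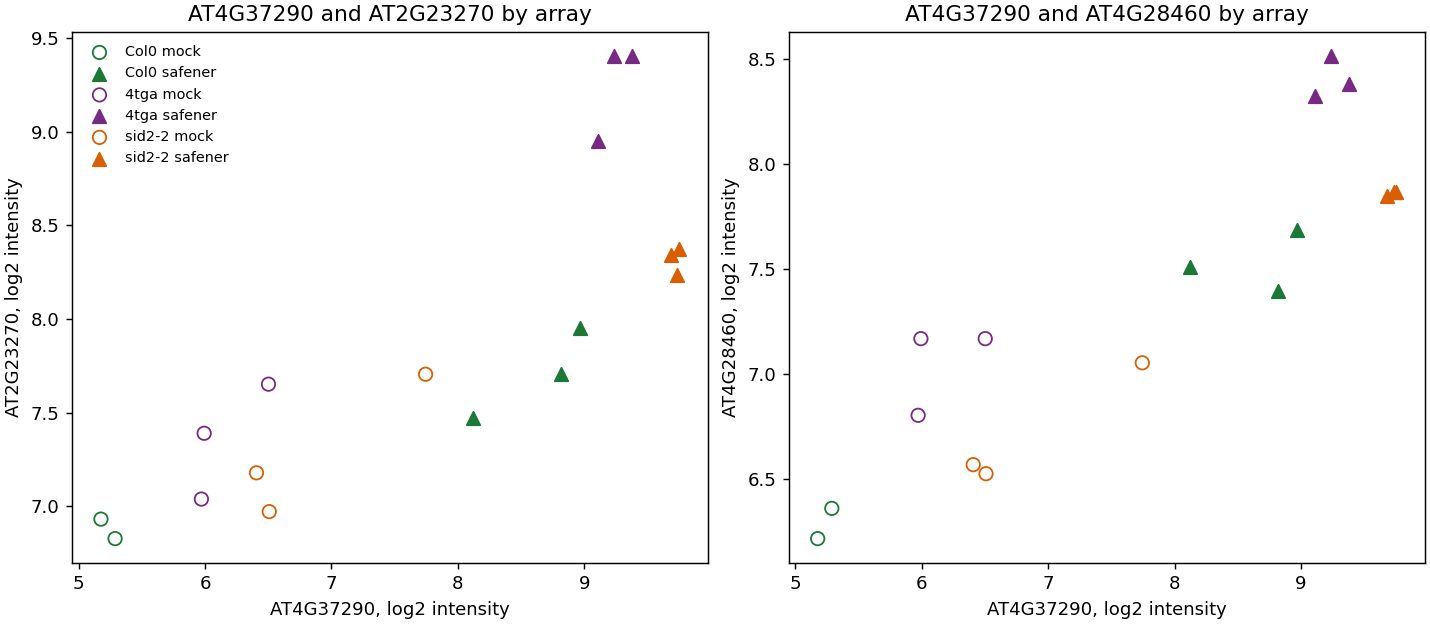
Log2 intensity of AT4G37290 (horizontal) against AT2G23270 (left panel) and AT4G28460 (right panel), 1 point for each of the 17 arrays with a value of AT4G37290. Open circles are mock and filled triangles safener arrays, coloured by genotype. The 3 safener treated 4tga arrays stand above the line of the other groups in the left panel, with AT2G23270 at 495 to 676 on the linear scale.

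AT4G28460 was tested as a further locus of the list of peptide precursors, and the rule that chose both PIP precursor genes did not use its values. The list was, however, written with earlier results of these arrays known, so the p values below do not come from a choice blind to the data. AT4G28460 stands on that list from general knowledge, since the annotation given holds only its locus name. Its intensity in Col0 was 82.2, 74.4 and 56.0 with mock and 206, 182 and 168 with safener. In 4tga it was 144, 112 and 144 with mock and 334, 321 and 365 with safener. In sid2-2 it was 94.9, 92.1 and 133 with mock and 230.1, 233.2 and 233.3 with safener. Within each genotype the safener arrays lay above the mock arrays, as for 20% of all tested probe sets in Col0, 17.4% in 4tga and 15.5% in sid2-2. Replicate 3 of mock treated sid2-2 was again the highest of its group. AT4G28460 rose 2.65-fold in Col0 (log2 1.40, SE 0.15, limma adjusted p = 1.15e-06), 2.57-fold in 4tga (log2 1.36, SE 0.15, limma adjusted p = 5.02e-06) and 2.21-fold in sid2-2 (log2 1.14, SE 0.15, limma adjusted p = 1.82e-05). Over the alternatives these adjusted p values did not exceed 0.000683. Without replicate 3 of mock treated sid2-2 the sid2-2 response was log2 1.31.

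The response of AT4G28460 did not differ detectably between genotypes. In 4tga minus Col0 it was log2 -0.04 (SE 0.21, interval -0.49 to 0.40, limma adjusted p = 0.98), and in sid2-2 minus Col0 -0.26 (SE 0.21, interval -0.71 to 0.18, limma adjusted p = 0.704). Over the alternatives the adjusted p was 0.783 to 0.999 and 0.500 to 0.998. The order of its 6 group means was the same as for AT2G23270, with 70.9 ± 13.5 in mock treated Col0 as the lowest and 340.0 ± 22.8 in safener treated 4tga as the highest (n = 3 each). The response of AT2G23270 exceeded that of AT4G28460 by log2 0.53 in 4tga (SE 0.12) and lay below it in Col0 (difference -0.47, SE 0.12). In sid2-2 the difference was -0.11 (SE 0.12).

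Further genes were read from 5 lists of 89 genes in all, of which the annotation given named 17. The lists were peptide precursors, receptors and co-receptors, the MAP kinase cascade, immune outputs and the salicylic acid branch. In Col0 11 of 16 tested genes rose and 1 fell, where 14.9% of all probe sets rose and 17.3% fell (limma, adjusted p under 0.05). Those that rose were 2 of 5 peptide precursors, 2 of 2 of the receptor list, 5 of 6 immune outputs and 2 of 3 of the salicylic acid branch. In 4tga 8 of 16 rose and 0 fell, against 8.81% and 10.3%, and in sid2-2 11 of 17 rose and 0 fell, against 13% and 19.6%. At an unadjusted p under 0.05 limma gave 0 lower genes in 4tga and in sid2-2 as well. The median log2 response of the list genes was 0.78, 0.44 and 0.78 in Col0, 4tga and sid2-2, and that of all probe sets -0.06, -0.07 and -0.09. Several of these genes are known to respond to stress, and the lists were written with earlier results of these arrays known.

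Of the 5 measured peptide precursors and processing genes, 2 rose in each genotype, AT4G28460 and AT5G05300. The share of all probe sets that rose was 14.9% in Col0, 8.81% in 4tga and 13% in sid2-2. AT5G05300 went from 102 ± 8.24 to 183 ± 17.4 in Col0, from 102 ± 5.03 to 180.4 ± 13.2 in 4tga and from 64.4 ± 18.2 to 98.0 ± 18.9 in sid2-2 (n = 3 each). Its limma adjusted p was 0.000505, 0.00123 and 0.00559. AT3G10930 gave log2 0.44, 0.23 and -0.15 in the 3 genotypes and was not called in any (limma adjusted p = 0.0749 in Col0). Without replicate 1 of safener treated Col0 it was called there (log2 0.61, limma adjusted p = 0.026), and likewise without replicate 2 of mock treated Col0 (log2 0.60, limma adjusted p = 0.0295). RALFL33, which encodes a peptide of the RALF family, fell in Col0 (log2 -0.33, SE 0.10, limma adjusted p = 0.014), but was not called without mock replicate 1 (adjusted p = 0.0523) or safener replicate 3 (adjusted p = 0.0775). The precursor protease gene S1P gave log2 -0.16, 0.10 and -0.16. It had a value on 2 of the 3 safener treated sid2-2 arrays.

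The list of receptors and co-receptors had 2 measured genes, BIK1 and EFR. BIK1 is a kinase that passes on signals of several immune receptors, and EFR is the receptor of a bacterial peptide. BIK1 rose in Col0 from 318 ± 52.0 to 546 ± 77.8 and in sid2-2 from 400.1 ± 37.0 to 686 ± 29.0 (log2 0.78 in both, limma adjusted p = 0.000153 and 0.000181). In 4tga it rose from 426 ± 52.5 to 613 ± 27.8 (log2 0.53, limma adjusted p = 0.0079), and was not called without replicate 2 of mock treated 4tga (adjusted p = 0.0574). EFR rose in Col0 (log2 0.77, SE 0.11) and sid2-2 (log2 0.92, SE 0.11, limma adjusted p = 7.35e-06). In 4tga it gave log2 0.28 (SE 0.11, limma adjusted p = 0.0834), and was called there when only the arrays compared were fitted (adjusted p = 0.0446) or arrays were weighted (adjusted p = 0.036). The difference between 4tga and Col0 was -0.49 (SE 0.16, limma adjusted p = 0.312, unadjusted p = 0.00624). None of the 10 genes of the MAP kinase list was named in the annotation given, so that list was not analysed here.

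Among all probe sets 14.9% rose in Col0, 8.81% in 4tga and 13% in sid2-2. Of the immune output genes 5 of 6 tested rose in Col0 and in 4tga, and 5 of 7 in sid2-2. These were the calmodulin-like genes CML37 and CML38, the ubiquitin ligase genes PUB23 and PUB24, which restrain immune responses, and the transcription factor gene WRKY22. CML38 went from 57.6 ± 10.3 to 265 ± 30.2 in Col0, from 74.2 ± 8.12 to 244 ± 42.5 in 4tga and from 119 ± 36.2 to 382 ± 39.3 in sid2-2 (log2 2.21, 1.71 and 1.72). CML37 rose by log2 2.35, 1.62 and 1.93, where the fit left out 1 blank in mock treated Col0 and 1 in mock treated sid2-2. With blanks at the lowest listed value, CML37 was not called in 4tga (adjusted p = 0.161). It had no blank in 4tga, where its log2 response stayed at 1.62 and the SE of the fit went from 0.15 to 0.73. PUB23 rose by log2 1.13, 1.37 and 0.85 and PUB24 by 0.71, 0.87 and 0.76. WRKY22 rose by 1.19, 1.04 and 2.06. WRKY53 gave 0.05, 0.34 and -0.08 and was not called, although limma adjusted p in 4tga was 0.0557 and fell to 0.0166 over the alternatives. PUB22 was listed on 10 of 18 arrays and tested in sid2-2 (log2 0.38, limma adjusted p = 0.0646, or 0.0476 without both arrays that stand apart).

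Of the 3 measured genes of the salicylic acid branch, 2 rose in Col0 and in sid2-2 and 0 in 4tga (limma, where an unadjusted p under 0.05 also gave 0 in 4tga). Among all probe sets 14.9% rose in Col0, 13% in sid2-2 and 8.81% in 4tga. GRX480, a glutaredoxin gene induced by salicylic acid, went from 231 ± 29.1 to 378 ± 23.2 in Col0, and was 66.8 ± 4.45 with mock and 62.4 ± 9.10 with safener in 4tga. The glucosyltransferase gene UGT76B1 was likewise called in Col0 (log2 1.31) and sid2-2 (log2 1.65) and not in 4tga (log2 0.28, limma adjusted p = 0.343). The difference of the response between 4tga and Col0 was not called for GRX480 (limma adjusted p = 0.133) or UGT76B1 (limma adjusted p = 0.142). Some alternatives given below called it. SAG101, a regulator of immunity with EDS1 and PAD4, was not called in any genotype, but was called lower in 4tga when only the arrays compared were fitted (adjusted p = 0.0473) or arrays were weighted (adjusted p = 0.0418). Whereas mock treated 4tga lay above mock treated Col0 for AT4G37290 and AT2G23270, GRX480 and UGT76B1 were lower there, with UGT76B1 at 86.2 ± 20.2 in 4tga and 603 ± 34.3 in Col0 (n = 3). GRX480 (94.2 ± 25.7) and UGT76B1 (88.4 ± 38.8) were also lower in mock treated sid2-2 than in mock treated Col0. In safener treated sid2-2 UGT76B1 reached 262 ± 8.44, still below mock treated Col0. SAG101 lay higher in mock treated 4tga (353 ± 17.4) than in mock treated Col0 (272 ± 45.5), and its arrays did not overlap. Such a separation held for 22.1% of all probe sets tested.

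The difference of the response between genotypes was called for 0 of the 16 list genes in 4tga minus Col0 and for 0 in sid2-2 minus Col0 by limma, where 0.467% and 0.103% of all probe sets were called. At an unadjusted p under 0.05, 0 genes were higher and 4 lower in 4tga minus Col0, namely UGT76B1 (log2 -1.03), GRX480 (log2 -0.83), CML37 (log2 -0.73) and EFR (log2 -0.49). In sid2-2 minus Col0 1 was higher, WRKY22 (log2 0.87, limma adjusted p = 0.131), and 1 lower, AT3G10930 (log2 -0.59). Without both arrays that stand apart, UGT76B1 and GRX480 were called in 4tga minus Col0 (limma adjusted p = 0.00892 and 0.0397). With array weights 4 were called in 4tga minus Col0, namely UGT76B1 (adjusted p = 0.00121), GRX480 (adjusted p = 0.00798), EFR (adjusted p = 0.0104) and CML37 (adjusted p = 0.0207). In sid2-2 minus Col0, weights called WRKY22 (adjusted p = 0.0138) and GRX480 (adjusted p = 0.0302). UGT76B1 was also called in 4tga minus Col0 with log2(intensity + 16) (adjusted p = 0.0439) and with only the arrays compared (adjusted p = 0.0209).

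**Figure D4:**
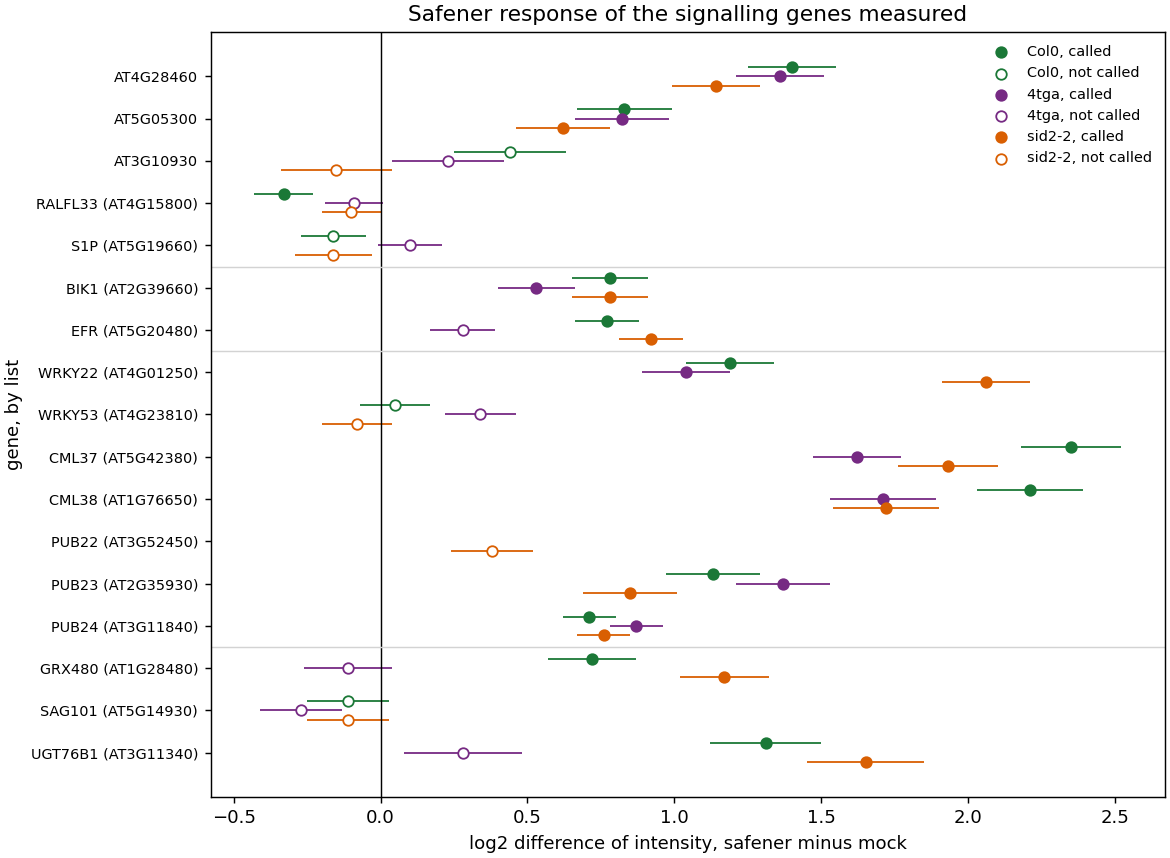
Log2 difference of intensity between safener and mock for the 17 list genes measured, with bars of 1 SE from the limma fit, by genotype. Filled points passed an adjusted p of 0.05 and open points did not; grey lines divide the lists of peptide precursors, receptors, immune outputs and the salicylic acid branch. GRX480, UGT76B1 and EFR are filled in Col0 and sid2-2 and open in 4tga, while AT4G28460 and AT5G05300 are filled in all 3.

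The genes whose profile was most like each PIP precursor gene were taken from probe sets of 1 gene with values on all 18 arrays. By Pearson's r of log2 intensity over 17 arrays, the 6 most like AT4G37290 among 7223 probe sets were the receptor-like kinase gene B120 (r = 0.978), CML38 (r = 0.975), AT1G61370 (r = 0.975), AT1G19020 (r = 0.971), the ARGOS-like gene ARL (r = 0.969), which affects organ growth, and AT1G24140 (r = 0.968). For AT4G37290, 146 probe sets had r over 0.9, and the median over all was -0.135. B120 went from 45.9 ± 11.8 to 271 ± 13.3 in Col0, from 107.5 ± 19.5 to 369 ± 52.6 in 4tga and from 119.8 ± 38.5 to 444 ± 18.2 in sid2-2. As for AT4G37290, its highest level was in safener treated sid2-2 and its lowest in mock treated Col0.

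Fewer probe sets followed AT2G23270, with 8 of 7222 at r over 0.9 over 18 arrays. The 6 most like it were AT4G28460 (r = 0.954), AT2G38240 (r = 0.942), AT3G09405 (r = 0.927), AT2G15760 (r = 0.924), AT4G33180 (r = 0.923) and the beta-glucosidase gene BGLU46 (r = 0.913). All 6 had their highest group mean in safener treated 4tga, as the gene they were chosen to resemble did. AT2G38240 went from 148 ± 27.4 to 366 ± 71.9 in Col0, from 334 ± 82.0 to 1143 ± 123 in 4tga and from 281 ± 32.7 to 903 ± 147 in sid2-2 (n = 3 each). Its log2 response was 1.30, 1.80 and 1.68, with the largest in 4tga as for AT2G23270. That was not so for the other 5, whose responses in Col0, 4tga and sid2-2 were 1.40, 1.36 and 1.14 for AT4G28460, 1.24, 1.20 and 0.60 for AT3G09405, and 1.02, 0.96 and 0.97 for AT2G15760. AT4G33180 gave 0.34, 0.34 and 0.36, and BGLU46 gave 1.27, 1.30 and 1.63. The likeness is a description over arrays that share treatment and genotype, and the rank depends on the measure. By Spearman's rho 1 of the 6 genes most like AT4G37290 and 2 of the 6 most like AT2G23270 stayed among the first 6, and by r over the 6 group means 0 and 0. Among the first 50 by rho were 5 and 6 of them, and by group means 6 and 6.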

How the data were processed

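The deposited values were intensities on a linear scale, 1 per probe set and array. Per the submitters' processing notes they were made with RMA (version not given), while the sources used here do not say how blanks arose. Of 22810 probe sets, 64 array controls were left out. All columns were used (0 were left out). For 13513 probe sets the annotation held a single gene. Intensities were taken to log2 and blanks left missing. A linear model with the means of 6 groups was fitted to all 18 arrays in limma (3.58.1, R 4.3.3) and moderated over the probe sets with at least 2 listed values in each group compared. Calls used Benjamini-Hochberg over all of them. The fit was tested on simulated data with independent normal noise around a common mean for each probe set and 200 planted changes. There 2-fold changes were recovered in 99%, 89% and 96% of cases for the responses in Col0, 4tga and sid2-2. For the differences of 4tga and sid2-2 from Col0 it was 87% and 77%. Of the simulated calls, 4.84% to 6.22% were false. The real data hold both arrays that stand apart and other numbers of changes, so recovery in them can differ. The labels call replicates separate biological samples, and the precision is limited by their number (3 in each group). The genes and lists were chosen with earlier results of these data known. Named are AT4G37290 and AT2G23270, the 6 probe sets of highest r to each, and from each list the called genes, up to 6, with other list genes named after their values were seen.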

Additional observations from a re-analysis of the deposited data

How the results depend on the processing

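The alternatives were quantile normalization, centring on the median, log2(intensity + 16), blanks at the lowest listed value, a fit to the compared arrays alone, a replicate block, array weights, filters on low values and leaving out each array. Leaving out both arrays that stand apart, and comparing groups within a treatment under the alternatives, were chosen after seeing the data. No value changed to a called value of the other sign. With log2(intensity + 16) the Col0 response of AT4G37290 was 2.95. With blanks at the lowest listed value it was 4.21, 4tga minus Col0 was -1.13, sid2-2 minus Col0 -1.38, and the mock differences from Col0 were 1.73 in 4tga and 2.46 in sid2-2. Without both arrays that stand apart, for AT4G37290 the sid2-2 response was 3.27, sid2-2 minus Col0 0.03, 4tga minus sid2-2 -0.18, mock sid2-2 minus Col0 1.23 and mock sid2-2 minus 4tga 0.30, and for AT2G23270 sid2-2 minus Col0 was 0.42. With array weights, 4tga minus sid2-2 of AT2G23270 was 0.55 and its mock sid2-2 minus 4tga -0.39.

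Leaving out single arrays gave, for AT4G37290, a sid2-2 response of 2.60 to 3.27, sid2-2 minus Col0 of -0.82 to -0.14, 4tga minus sid2-2 of -0.18 to 0.49, mock sid2-2 minus Col0 of 1.23 to 1.89 and mock sid2-2 minus 4tga of 0.30 to 0.97. Without replicate 1 or 2 of mock treated Col0 its Col0 comparisons could not be fitted. Probe sets called numbered 1568 to 2600 for the 4tga response (2900 with all arrays), 28 to 70 for 4tga minus Col0 (68) and 5 to 20 for sid2-2 minus Col0 (15). With array weights 7590, 5066 and 7477 probe sets were called for the responses in Col0, 4tga and sid2-2 (4738, 2900 and 4963 without), 536 for 4tga minus Col0 and 212 for sid2-2 minus Col0. Without both arrays that stand apart the last 2 counts were 117 and 5. For sid2-2 minus Col0 quantile normalization gave 9, blanks at the lowest value 41 and the compared arrays alone 5. Of the list genes, 4tga minus Col0 called 1 with log2(intensity + 16), 1 with the compared arrays alone, 4 with array weights and 2 without both arrays that stand apart, and sid2-2 minus Col0 called 2 with array weights. Of the 6 genes most like AT4G37290, 1 stayed among the first 6 by Spearman's rho and 0 by group means, and of those most like AT2G23270 2 and 0. The causes of these changes were not tested.

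Whether the same replicate numbers pair the samples is not settled by the values. Deviations of same-numbered arrays correlated at -0.406 to 0.463 over the pairs of groups. For safener treated 4tga with each sid2-2 group all 3 arrays were most like their own number, and for the other pairs 0 to 2. With the replicate block, 6 probe sets were called for sid2-2 minus Col0, 4tga minus Col0 was -0.18 (SE 0.34) for AT4G37290 and 0.95 (SE 0.23) for AT2G23270. Of the called probe sets for the sid2-2 minus Col0 difference 20% were higher, and 31.2% after centring on the median.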

Other observations

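Neighbours of the PIP precursor genes on the chromosome, in the order of the RefSeq annotation of TAIR10.1, were read as a local comparison, for 3 protein coding genes on each side and with no test. Next to AT4G37290 lies AT4G37295, which had a value on 1 of 18 arrays (48.2), and its other 5 neighbours had no probe set named alone for them in the annotation given. Near AT2G23270, AT2G23310 (ATRER1C1) had a value on all arrays and gave a log2 safener response of -0.06, -0.03 and 0.09 in Col0, 4tga and sid2-2 (SE 0.10 each). AT2G23300 had a value on 10 of 18 arrays and was fitted in 4tga alone (log2 -0.05, SE 0.13). Near AT4G28460, AT4G28440 gave -0.02, -0.23 and -0.39 (SE 0.13 each), AT4G28450 gave 0.12, 0.00 and -0.04 (SE 0.13 each), and AT4G28480 gave 0.26, 0.12 and 0.30 (SE 0.10 each). AT4G28430 had a value on 11 of 18 arrays and gave -0.21 in 4tga (SE 0.18) and -0.21 in sid2-2 (SE 0.20). The responses of these measured neighbours were smaller in size than those of AT2G23270 (0.94, 1.89 and 1.03) and AT4G28460 (1.40, 1.36 and 1.14). Since AT2G23270 was chosen for its induction and only AT2G23310 and, in 4tga, AT2G23300 stand beside it here, nothing is read from that comparison. The median log2 response of all probe sets was -0.06, -0.07 and -0.09 in Col0, 4tga and sid2-2.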
